A study of Rattus norvegicus with 6 samples.

Results

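Notch receptors, their ligands, the HES and HEY repressors that Notch switches on, and the RNA-binding protein gene Msi1 were examined in injured rat spinal cord with and without electrical stimulation. The set held 10 genes, chosen by symbol from the 32623 genes of the expression table: the receptor genes Notch1, Notch2 and Notch3, the ligand genes Jag1 and Dll1, the target genes Hes1, Hes5, Hey1 and Hey2, and Msi1. Poly(A) RNA was sequenced in 6 libraries of spinal cord from female Wistar rats aged 8 weeks and weighing 200 to 230 g, all of a spinal cord injury model. The 3 libraries called ES came from the model given electrical stimulation, and the 3 called SCI from the same model with no stimulation, so that injury was common to every library and no uninjured cord was used here. The labels give no injury level, stimulation settings or time after injury, and do not say whether a library is 1 rat or a pool. Because nothing states that the libraries came from separate rats, each p-value rests on the variation among 3 libraries per group, and that variation may be technical.

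Notch is a cell-surface receptor that is activated by a ligand on a neighbouring cell. Mind bomb ubiquitin ligases start endocytosis of the bound ligand, an ADAM protease and then the gamma-secretase complex cut the receptor, and the freed intracellular part enters the nucleus, where it joins the DNA-binding protein RBPJ and a Mastermind coactivator at target genes such as Hes1, Hes5, Hey1 and Hey2. The proteins of those target genes repress neuronal differentiation genes, which keeps neural stem cells and radial glia undifferentiated, and in vessels Notch acts in endothelial cells and in mural cells (pericytes and smooth muscle). MSI1, a Musashi protein of neural stem cells and ependymal cells, binds RNA and is known in the mouse to repress translation of Numb, whose protein antagonises Notch.

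RBPJ recognises a core of letters TGGGAA on either strand, and the promoters of the set that hold it are shown here. Binding of RBPJ to them was not measured. Sequences came from RefSeq windows of 250 bases before the start site on build GRCr8, in which 8 of the 10 genes had an entry, and Hey1 and Msi1 had none in the table. The stretches below run 5′ to 3′ in the direction of transcription, with the core, or its complement TTCCCA, in capitals.
Hes1, chr11:84213129-84213188, minus strand: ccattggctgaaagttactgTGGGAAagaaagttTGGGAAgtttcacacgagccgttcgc
Hes5, chr5:170804327-170804504, plus strand: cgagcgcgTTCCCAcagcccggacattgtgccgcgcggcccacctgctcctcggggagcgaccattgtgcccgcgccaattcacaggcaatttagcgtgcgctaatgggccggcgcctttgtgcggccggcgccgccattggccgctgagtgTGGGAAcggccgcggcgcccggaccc
Hey2, chr1:28640905-28641065, plus strand: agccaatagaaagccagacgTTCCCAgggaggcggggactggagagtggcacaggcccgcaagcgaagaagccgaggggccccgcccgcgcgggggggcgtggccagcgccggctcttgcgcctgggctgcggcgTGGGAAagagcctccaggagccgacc
Dll1, chr1:64993331-64993479, minus strand: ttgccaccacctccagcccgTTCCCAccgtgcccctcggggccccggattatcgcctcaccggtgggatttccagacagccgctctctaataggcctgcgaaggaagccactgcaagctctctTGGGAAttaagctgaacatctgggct

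Hes1, Hes5, Hey2 and Dll1 each held 2 copies of the core, and the windows of Notch1, Notch2, Notch3 and Jag1 held none. The windows of Heyl and Nrarp, target genes outside the set, held none either. Copies of the core began 123 and 109 bases before the start in Hes1, 242 and 98 in Hes5, 175 and 60 in Hey2, and 185 and 82 in Dll1. In Hes1 both copies lay on the strand of the gene, and in the other 3 genes the copies faced in opposite directions. Of all 33469 windows of the table, 22.1% held TGGGAA, and 5.27% held the longer GTGGGAA, which was present in these same 4 promoters. The motif CACGNG, bound by HES and HEY proteins themselves and searched on both strands, stood 4 times in Hes1, 3 times in Notch2, 2 times in Jag1 and 1 time in Notch1, against 22.5% of all windows with at least 1 copy. A match describes the letters only. Of the 4 genes with the core, Hes1 and Hey2 were lower with stimulation, Dll1 did not pass the test, and Hes5 was listed above 0 in the ES libraries alone.

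Of the 10 genes, 8 were lower in ES than in SCI at an adjusted p under 0.05, none was higher, Dll1 did not pass, and Hes5 was too low to be tested. Levels are FPKM, fragments per kilobase of gene scaled to library size, and the test was limma on log2(FPKM + 1) with adjustment over all 15750 genes with a mean of at least 0.5 FPKM. In this comparison 27.6% of all tested genes were lower and 17.4% higher (45.0% in either direction), and the median log2 change over all of them was -0.06. Among the 9 tested genes of the set the median log2 change was -0.56, with a range of -0.78 to -0.04. In all 8 lower genes every ES library lay below every SCI library, which was so for 34.6% of all tested genes, while 21.9% had every ES library above every SCI library. The 9 tested genes were above 0.5 FPKM in every library, so none entered the test through 1 group alone. Fewer cells of a type and less RNA per cell cannot be told apart in bulk tissue.

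**Figure D1:**
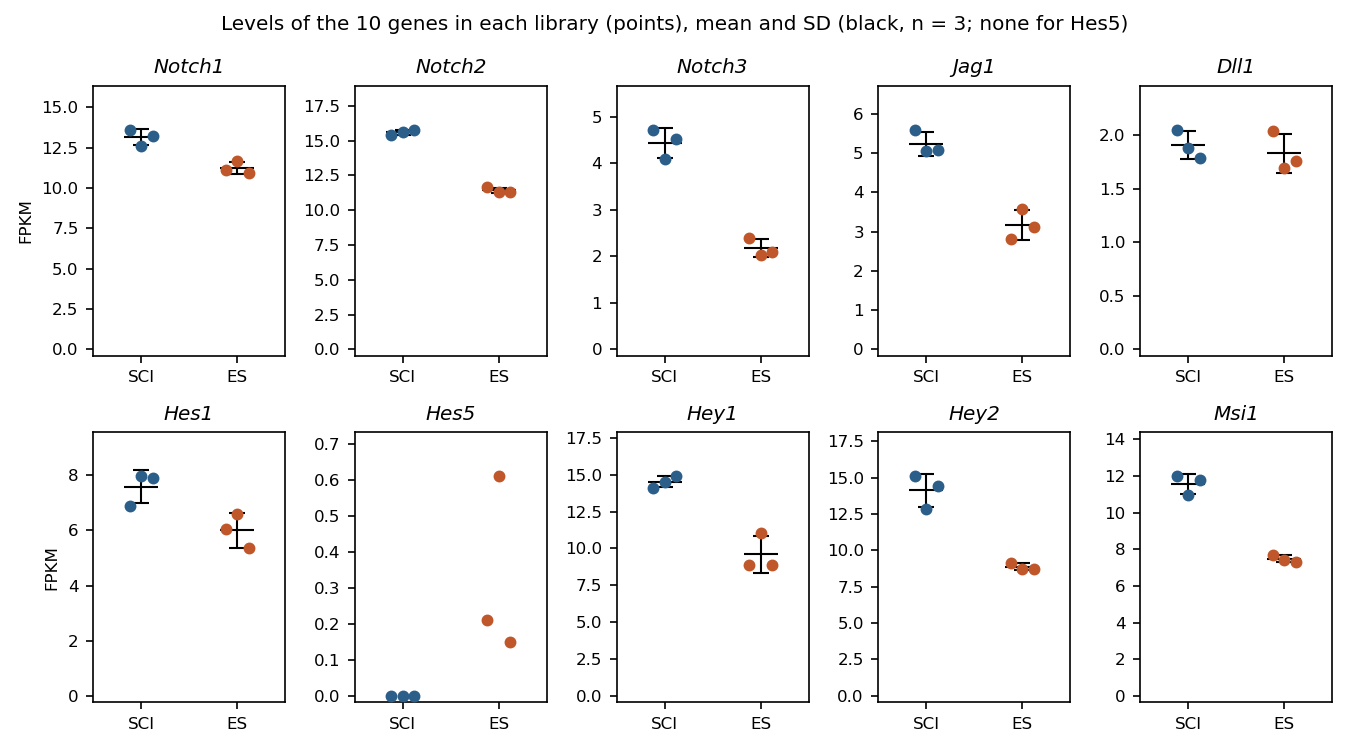
FPKM (y axis, from 0) of the 10 genes in the 3 SCI (blue) and 3 ES (orange) libraries, with points for libraries and black bars for mean and SD (n = 3), which are not drawn for Hes5. The groups are apart in every panel except Dll1, with the ES points lower in 8 panels, and Hes5 is listed at 0 in all SCI libraries.

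The ranking of the levels, which are comparable between genes because FPKM is per length, was led by Notch2 in both groups. In SCI libraries it was followed by Hey1, Hey2, Notch1, Msi1, Hes1, Jag1, Notch3, Dll1 and Hes5, and only the neighbours Hey1 and Hey2, and Hey2 and Notch1, overlapped. In ES libraries Notch2 overlapped Notch1, Notch1 overlapped Hey1 and Hey1 overlapped Hey2, followed by Msi1, Hes1 and Jag1 without overlap, and Notch3 then overlapped Dll1.

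Among the ligands, Jag1, whose protein activates Notch receptors in glia and vessel walls, was lower with stimulation. Jag1 (ENSRNOG00000007443, chromosome 3, 130079361 to 130114770, minus strand, 26 exons, coordinates as in the files whose build the sources used here do not give) had 2.81, 3.57 and 3.11 FPKM in ES replicates 1 to 3 and 5.60, 5.06 and 5.07 FPKM in SCI replicates 1 to 3. All ES values lay below all SCI values, with ES replicate 2 nearest to them. The means were 3.17 ± 0.378 and 5.24 ± 0.306 FPKM (SD, n = 3), so that ES held 60.4% of the SCI level, with a log2 change of -0.59 ± 0.08 (SE) and an adjusted p of 0.00181 in limma. The call was kept in all 16 alternatives.

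Dll1, a Delta-like ligand gene made by cells that leave the progenitor state, did not pass the test. Dll1 (ENSRNOG00000059984, chromosome 1, 57318708 to 57327379, minus strand, 11 exons) had 2.04, 1.69 and 1.76 FPKM in ES and 2.05, 1.88 and 1.79 FPKM in SCI. The groups overlapped, and replicate 1 was the highest in each. Its log2 change was -0.04 with a 95% interval of -0.24 to 0.16 (adjusted p = 0.736, limma), and its sign turned under quantile normalization (0.09) and median centring (0.05). Between 94.3 and 123 read pairs per library were estimated to lie behind these values, so that counting error alone amounts to 9.56% of the level.

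The other canonical ligands were low. Jag2 had 3.57 ± 0.267 FPKM in ES and 4.16 ± 0.579 FPKM in SCI (log2 change -0.17, adjusted p = 0.198 in limma), and Dll4, an endothelial ligand gene, had 0.754 ± 0.129 and 1.04 ± 0.205 FPKM (-0.21, adjusted p = 0.168). Neither passed. Dll3, which encodes a Delta-like protein that does not activate receptors on other cells, was below the filter, at 0.156, 0.221 and 0.135 FPKM in ES and 0.0190, 0.0388 and 0.0692 FPKM in SCI. Of the 4 tested ligand genes 1 was lower and 3 did not pass, where 27.6% of all tested genes were lower. Jag1 made up 34.0 ± 4.24% of the summed FPKM of Jag1, Jag2, Dll1 and Dll4 in ES and 42.6 ± 1.59% in SCI (exact permutation test, two-sided, p = 0.1, the smallest that 3 against 3 allows, and 0.15 adjusted over the 9 ratios computed).

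All 3 receptor genes of the set were lower with stimulation, at 85.5% of the SCI level for Notch1, 73.3% for Notch2 and 48.9% for Notch3. Notch1 (ENSRNOG00000019322, chromosome 3, 3905453 to 3951025, minus strand, 34 exons), the receptor gene most studied in neural stem cells, had 11.1, 11.7 and 10.9 FPKM in ES and 13.6, 12.6 and 13.2 FPKM in SCI. The ES libraries were all below the SCI libraries, with a narrow gap between ES replicate 2 and SCI replicate 2. Its means of 11.2 ± 0.381 and 13.2 ± 0.494 FPKM put ES at 85.5% of SCI (log2 change -0.21 ± 0.05, adjusted p = 0.0111, limma). Under median centring the call was lost (-0.12, adjusted p = 0.0849).

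Notch2 (ENSRNOG00000018835, chromosome 2, plus strand), the receptor gene with the highest level, had 11.6, 11.3 and 11.3 FPKM in ES against 15.4, 15.6 and 15.8 FPKM in SCI. Libraries within a group lay close together, and the gap between groups was wider than either group's range. ES held 73.3% of the SCI level, with a log2 change of -0.42 ± 0.04 and an adjusted p of 0.000197 in limma, kept in all 16 alternatives. It was the only gene of the set with 2 annotated transcripts. The long one (200187184 to 200320215, 34 exons, 10535 bases) carried the difference, with 12.7, 12.4 and 12.4 FPKM in ES and 16.9, 17.1 and 17.3 FPKM in SCI (log2 change -0.42, adjusted p = 0.000561 over transcripts). The short one (200187179 to 200188792, 2 exons, 1261 bases) was below the filter, at 0.260, 0.306 and 0.134 FPKM in ES and 0.634, 0.469 and 0.323 FPKM in SCI.

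Notch3, a receptor gene of vascular smooth muscle and pericytes, had the largest log2 change of the set. Notch3 (ENSRNOG00000004346, chromosome 7, 14138495 to 14189688, minus strand, 33 exons) had 2.39, 2.02 and 2.10 FPKM in ES and 4.72, 4.08 and 4.52 FPKM in SCI. The highest ES library was far below the lowest SCI library. SCI was 2.05-fold above ES (2.17 ± 0.195 against 4.44 ± 0.326 FPKM, log2 change -0.78 ± 0.08, adjusted p = 0.000421, limma), and the call was kept in all 16 alternatives. In the authors' deposited table Notch3 was the only gene of the set marked as significant, with a log2 fold of -1.03 and a q-value of 1.37e-07. That table marks 2.31% of its genes as significant and down and 0.840% as significant and up.

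Mural cell markers were lower in the same libraries. The 6 markers other than Notch3 (Pdgfrb, Rgs5, Acta2, Myh11, Kcnj8 and Abcc9) were all lower, against 27.6% of all tested genes. Their summed level was 63.9 to 66.7 FPKM in ES libraries and 127 to 136 FPKM in SCI libraries. Per 100 FPKM of these markers, Notch3 had 3.66, 3.17 and 3.15 FPKM in ES and 3.73, 3.01 and 3.37 FPKM in SCI. The groups overlapped on this scale (3.32 ± 0.292 against 3.37 ± 0.360, exact permutation p = 0.9). The markers differed in their change, from 31.5% of the SCI level for Myh11 to 77.4% for Abcc9. Rgs5 (60.3 FPKM in SCI) and Acta2 (34.3 FPKM) were the largest terms of the sum, so the ratio depends on the markers chosen. The part of mural cell number in the lower Notch3 level was not tested. Within Notch3 lie 2 separate short transcripts listed under AABR07055864. The one on the opposite strand to Notch3 had a mean of 0 FPKM in ES and 0.145 FPKM in SCI, and the one on the strand of Notch3 was listed at 0 in both groups. The libraries were stranded, but the sources used here do not give whether counting used strand.

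Notch4, the endothelial receptor gene, gave values of 2.79, 2.92 and 2.62 FPKM in ES and 2.86, 2.80 and 2.61 FPKM in SCI. The groups overlapped throughout, and the log2 change was 0.01 (adjusted p = 0.937, limma), turning to -0.05 with rescaling to equal totals and to -0.02 without ES replicate 2 or without SCI replicate 3. Summed over Notch1 to Notch4, receptor RNA stood at 27.6 ± 0.556 FPKM in ES and 36.0 ± 0.773 FPKM in SCI. Within that sum Notch3 made up 7.86 ± 0.665% in ES and 12.3 ± 0.646% in SCI, Notch4 10.1 ± 0.367% and 7.67 ± 0.394%, Notch1 40.7 ± 1.01% and 36.6 ± 0.596%, and Notch2 41.4 ± 0.743% and 43.4 ± 1.15%. No share overlapped between the groups, and each, like the sum, gave an exact permutation p of 0.1, the smallest the design allows (0.15 adjusted over 9 ratios).

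**Figure D2:**
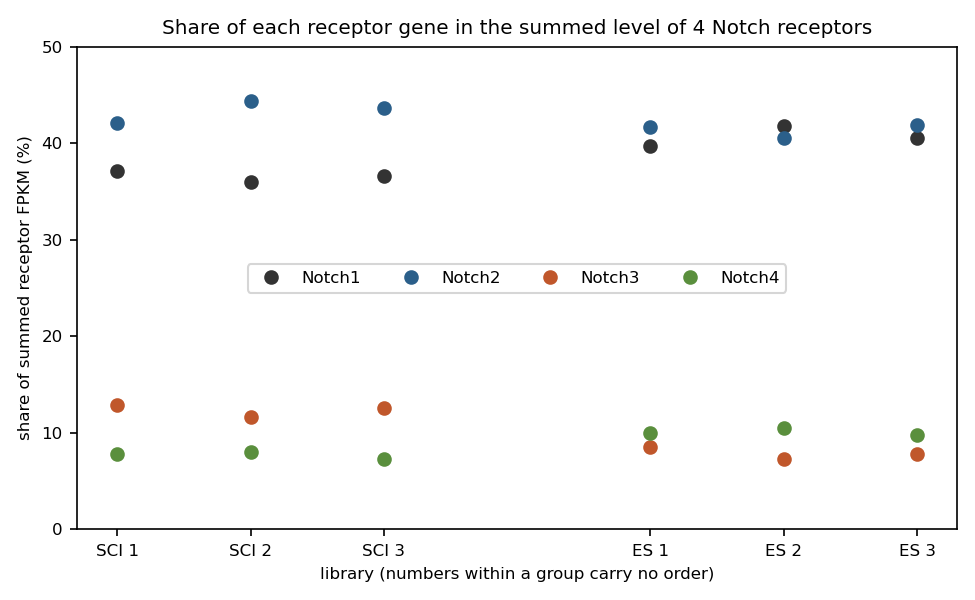
Share of each receptor gene in the summed FPKM of Notch1, Notch2, Notch3 and Notch4 (y axis, percent) in each library (x axis). Notch3 lies above Notch4 in the SCI libraries, at 12.3% against 7.67% on average, and below it in the ES libraries, at 7.86% against 10.1%.

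Of the HES and HEY repressor genes, Hey1, Hey2 and Hes1 were lower with stimulation, at 66.2%, 62.8% and 79.2% of the SCI level. Hey1 (ENSRNOG00000011593, chromosome 2, 95320283 to 95322696, plus strand, 5 exons), which encodes a repressor of Notch-active glia and endothelium, had 8.89, 11.1 and 8.88 FPKM in ES and 14.1, 14.5 and 14.9 FPKM in SCI. ES replicate 2 was above the other ES libraries and still below each SCI library. The means of 9.61 ± 1.26 and 14.5 ± 0.378 FPKM put ES at 66.2% of SCI (log2 change -0.56 ± 0.08, adjusted p = 0.00226, limma).

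Hey2 (ENSRNOG00000013364, chromosome 1, 29191192 to 29201531, plus strand, 5 exons), its close relative in the heart and arteries, had 9.15, 8.75 and 8.72 FPKM in ES and 15.1, 12.9 and 14.4 FPKM in SCI. The ES libraries lay close together, below the wider spread of the SCI libraries. ES held 62.8% of the SCI level (8.87 ± 0.242 against 14.1 ± 1.14 FPKM, log2 change -0.61 ± 0.06, adjusted p = 0.000448, limma). For Hey1 and Hey2 the call was kept in all 16 alternatives. The ratio of Hey2 to Hey1 was 0.934 ± 0.126 in ES and 0.974 ± 0.0911 in SCI (exact permutation p = 0.7), with overlapping groups.

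Hes1, the repressor gene that oscillates in neural progenitors, had the largest adjusted p of the 8 calls. Hes1 (ENSRNOG00000001720, chromosome 11, 74312806 to 74315248, minus strand, 4 exons) had 6.05, 6.60 and 5.35 FPKM in ES and 6.89, 7.96 and 7.89 FPKM in SCI. The groups did not overlap, but ES replicate 2 and SCI replicate 1 were close. ES held 79.2% of SCI (log2 change -0.29 ± 0.09, adjusted p = 0.0319, limma). The call was lost without ES replicate 1, ES replicate 3, SCI replicate 2 or SCI replicate 3 (adjusted p = 0.0713 to 0.0920), with no filter (0.0504), under quantile normalization (0.103) and median centring (0.101), and in the fit over transcripts (0.0592).

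Hes5, a target gene of Notch in radial glia and astrocytes, was at the limit of detection. Hes5 (ENSRNOG00000013850, chromosome 5, 172364421 to 172365188, plus strand, 3 exons, 592 bases) had 0.210, 0.611 and 0.150 FPKM in ES and was listed at 0 in all 3 SCI libraries. The ES values correspond to an estimated 1.73, 5.48 and 1.43 read pairs, and a count of 0 allows up to 0.272 to 0.310 FPKM in the SCI libraries (3 read pairs, counting error only). Only ES replicate 2 was above that range, and no fold or test is given. The authors' deposited table gives Hes5 a fold of 3235, which rests on the 0.0001 written in place of 0, beside a p-value of 1.

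The remaining genes of the target list included Id3, an inhibitor of basic helix-loop-helix factors that also responds to BMP. Id3 had 85.4 ± 2.90 FPKM in ES and 155 ± 7.78 FPKM in SCI (log2 change -0.85, adjusted p = 2.36e-05, limma). Heyl, the third HEY gene, had 3.58 ± 0.0291 and 4.49 ± 0.281 FPKM (-0.26, adjusted p = 0.0150), a call lost under quantile normalization (0.193) and median centring (0.0673). Id1 had 39.0 ± 2.41 and 34.7 ± 2.88 FPKM and did not pass (0.16, adjusted p = 0.103), but passed as higher under median centring (0.26, adjusted p = 0.0258).

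Nrarp, which is switched on by Notch and in turn limits it, went the other way. It had 2.22, 1.79 and 1.83 FPKM in ES and 1.34, 0.926 and 1.49 FPKM in SCI. Each ES library was above each SCI library, by 1.55-fold in the means (log2 change 0.39 ± 0.12, adjusted p = 0.0392, limma). The call was lost without ES replicate 1, 2 or 3 or SCI replicate 1 or 2 (adjusted p = 0.0667 to 0.116), with no filter (0.0559) and with equal totals (0.0576). Hes2 and Hes3 were below the filter, with Hes3 listed at 0 in every library, and Hes4 was not used here. Over the 9 tested genes of the target list 5 were lower, 1 was higher and 3 did not pass, with a median of -0.27. Of all tested genes 27.6% were lower and 17.4% higher.

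Both Musashi genes were lower with stimulation. Msi1 (ENSRNOG00000001156, chromosome 12, 46895447 to 46920952, minus strand, 13 exons) had 7.72, 7.44 and 7.33 FPKM in ES and 12.0, 11.0 and 11.8 FPKM in SCI. The ES libraries differed little among themselves and lay well below all SCI libraries. Its means were 7.50 ± 0.197 and 11.6 ± 0.533 FPKM, 64.8% of the SCI level (log2 change -0.57 ± 0.05, adjusted p = 0.000222, limma), kept in all 16 alternatives. A short gene on the opposite strand, AC097575, lies over Msi1 with a mean of 0 FPKM in ES and 0.185 FPKM in SCI.

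Msi2, which encodes the related and more widely made Musashi protein, had 11.5, 13.0 and 12.8 FPKM in ES and 19.2, 18.9 and 21.3 FPKM in SCI. Its groups did not overlap either, at 12.4 ± 0.794 and 19.8 ± 1.30 FPKM (log2 change -0.63 ± 0.06, adjusted p = 0.000421, limma). The ratio of Msi1 to Msi2 was 0.606 ± 0.0558 in ES and 0.586 ± 0.0356 in SCI (exact permutation p = 0.7). Numb, the mouse target of MSI1 translation control and an inhibitor of Notch, was lower too, at 8.15 ± 0.516 FPKM in ES and 10.9 ± 0.309 FPKM in SCI (-0.38, adjusted p = 0.00199).

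The genes that make, process and read Notch signals were followed in 10 lists, from ligands to target repressors and without the Musashi genes, with 63 genes outside the set. Of these 60 were in the table and 57 were tested. Among the 57, 19 were lower, 10 were higher and 28 did not pass. Of all tested genes 27.6% were lower and 17.4% higher, and the counts of each list below stand beside these shares. The median log2 change of the 57 was -0.08, against -0.06 over all tested genes. Both directions occurred within most lists.

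**Figure D3:**
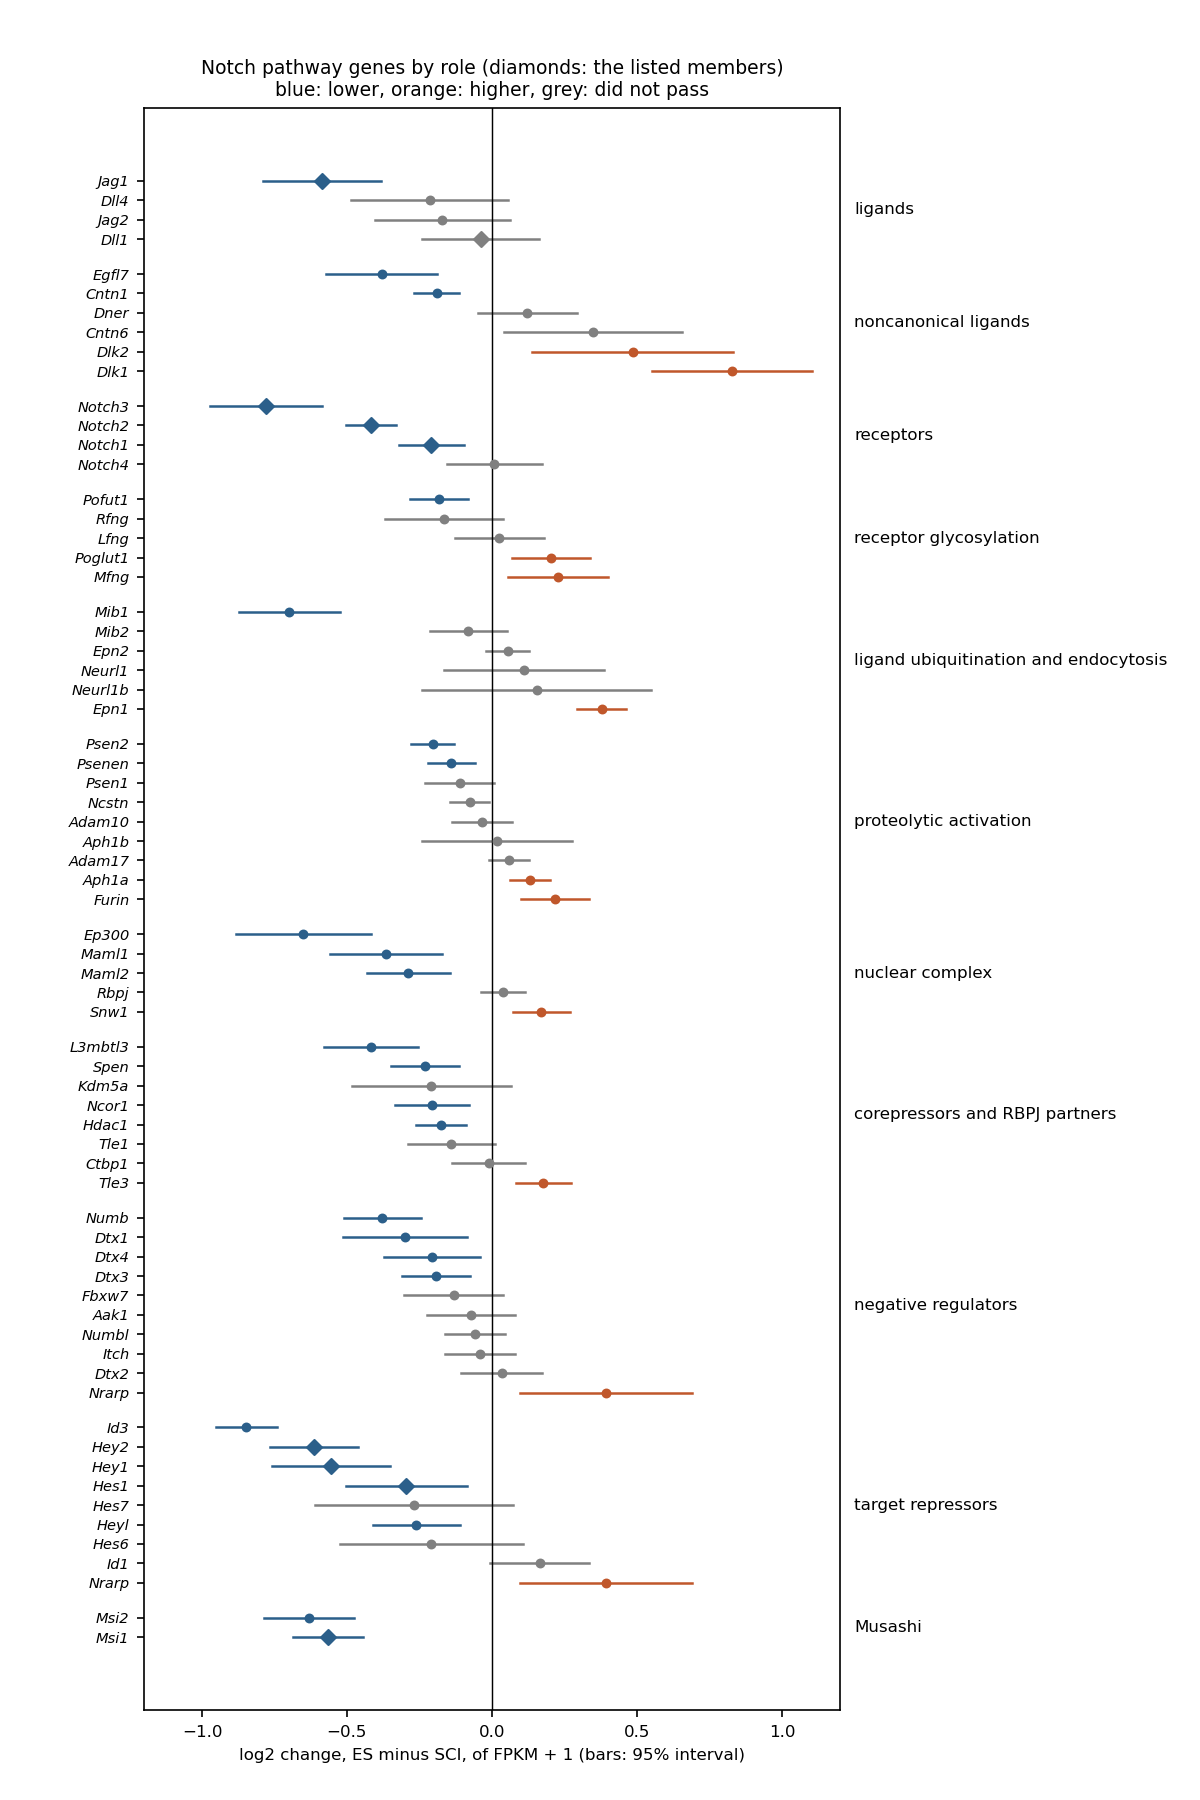
Log2 change of FPKM + 1, ES minus SCI (x axis), with 95% intervals for the tested genes of each list, ordered within lists; diamonds mark the genes of the set, blue passed as lower, orange passed as higher and grey did not pass. The receptors and Musashi genes lie at or left of 0 apart from Notch4 at 0.01, while most other lists hold both blue and orange genes.

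Noncanonical ligand genes moved in both directions. Dlk1, whose membrane protein lacks the domain by which canonical ligands bind Notch, had 2.42 ± 0.247 FPKM in ES and 0.934 ± 0.223 FPKM in SCI, 2.59-fold higher with stimulation (log2 change 0.83, adjusted p = 0.00157, limma). Dlk2 was higher as well (0.49, adjusted p = 0.0331), a call lost without ES replicate 1 or 3 or any SCI replicate (0.0528 to 0.101). Cntn1, a contactin gene of axons and oligodendrocyte lineage cells, was lower (85.9 ± 1.45 against 98.1 ± 3.50 FPKM, -0.19, adjusted p = 0.00378). Egfl7, secreted by endothelium, was lower (12.9 ± 0.890 against 17.1 ± 1.66 FPKM, -0.38, adjusted p = 0.00849).

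Among the genes acting on ligand and receptor proteins, the list of ubiquitination and endocytosis held 1 lower and 1 higher gene. Mib1, the ubiquitin ligase gene needed in cells that send Notch signals, had 4.90 ± 0.360 FPKM in ES and 8.58 ± 0.628 FPKM in SCI (log2 change -0.70, adjusted p = 0.000446, limma), while Mib2 did not pass (-0.08, adjusted p = 0.275, and 0.01 under median centring). The endocytic adaptor gene Epn1 was higher, at 74.9 ± 1.39 and 57.5 ± 2.33 FPKM (0.38, adjusted p = 0.000303). The remaining 3 genes of this list did not pass. Of the receptor glycosylation genes, Pofut1, which adds O-fucose to the receptor, was lower (-0.18, adjusted p = 0.0117, lost under quantile normalization at 0.0870 and median centring at 0.121). Poglut1 (0.20, adjusted p = 0.0243) and Mfng (0.23, adjusted p = 0.0411) were higher. Poglut1 lost its call without ES replicate 1 or 2 or SCI replicate 1 or 2 (0.0654 to 0.0743) and with equal totals (0.0855), and Mfng lost it without any 1 ES library or SCI replicate 2 or 3 (0.0562 to 0.120), with no filter (0.0611) and with equal totals (0.106).

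The proteases that cut the receptor changed by small amounts. Psen2, a catalytic subunit gene of gamma-secretase, was lower (21.6 ± 0.305 against 25.1 ± 0.361 FPKM, log2 change -0.20, adjusted p = 0.00224, limma), and so was the subunit gene Psenen (-0.14, adjusted p = 0.0164), which lost its call without SCI replicate 1 (0.0520), with no mean-variance trend (0.0501) and under median centring (0.305). Aph1a, another subunit gene, was higher (49.1 ± 0.347 against 44.7 ± 1.09 FPKM, 0.13, adjusted p = 0.0101, lost with equal totals at 0.125). Furin, the gene of the convertase that first cleaves the receptor on its way to the surface, was higher (27.1 ± 1.16 against 23.2 ± 1.11 FPKM, 0.22, adjusted p = 0.0115). The remaining 5 of 9 genes did not pass, and the list's median was -0.03.

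In the nuclear complex, Rbpj did not pass the test, Ep300, Maml1 and Maml2 were lower and Snw1 was higher. Rbpj, the DNA-binding subunit, had 22.1, 23.0 and 22.4 FPKM in ES and 21.8, 22.0 and 21.8 FPKM in SCI. The ES libraries were higher by a narrow margin that did not pass (log2 change 0.04, adjusted p = 0.373, limma), passed under median centring (0.13, adjusted p = 0.0163) and turned sign with equal totals (-0.03). The acetyltransferase gene Ep300 was lower, at 3.34 ± 0.442 and 5.81 ± 0.522 FPKM (-0.65, adjusted p = 0.00206). The Mastermind genes Maml1 (4.30 ± 0.0498 against 5.86 ± 0.678 FPKM, -0.37, adjusted p = 0.0107) and Maml2 (3.86 ± 0.0646 against 4.95 ± 0.281 FPKM, -0.29, adjusted p = 0.00857) were lower, and both calls were lost under quantile normalization (0.0636 and 0.104). Snw1, a splicing and transcription cofactor gene, was higher (0.17, adjusted p = 0.0155), a call lost without ES replicate 2 (0.0531) and with equal totals (0.0901). Maml3 and Kat2b were not used here.

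Corepressor genes that hold targets silent when Notch is inactive were split. Tle3, a Groucho-type corepressor gene, was higher (23.5 ± 0.208 against 20.7 ± 0.872 FPKM, log2 change 0.18, adjusted p = 0.0112, limma), a call lost with equal totals (0.0621). L3mbtl3, whose protein binds RBPJ, was lower (2.66 ± 0.166 against 3.90 ± 0.172 FPKM, -0.42, adjusted p = 0.00295). Hdac1 (-0.18, adjusted p = 0.00774, and 0.102 under median centring) and Spen (-0.23, adjusted p = 0.00880, and 0.108 under quantile normalization and 0.0558 under median centring) were lower too. Over the 8 tested genes 4 were lower, 1 was higher and 3 did not pass. Of 10 negative regulators, 4 were lower, with Numb the largest, 1 (Nrarp) was higher and 5 did not pass. The Deltex genes Dtx3 (-0.19, adjusted p = 0.0190) and Dtx1 (-0.30, adjusted p = 0.0335) each lost their call without at least 4 of the single libraries (0.0541 to 0.0631 for Dtx3 without ES replicate 1 or 3 or SCI replicate 1 or 2, and 0.0610 to 0.0956 for Dtx1 without any ES library or SCI replicate 1 or 3). Dtx3 lost it also under median centring (0.142), and Dtx1 under quantile normalization (0.128), median centring (0.106) and with no filter (0.0533).

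Genes that mark the cells in which Notch is known to act were set beside the set. In the list of neural stem and radial glia genes, 6 of 9 tested genes were lower, among them Msi1, itself a gene of the set. Sox2 was higher and 2 did not pass. Of all tested genes 27.6% were lower and 17.4% higher. Vim, an intermediate filament gene of radial glia and reactive astrocytes, had 1552 ± 14.8 FPKM in ES and 2077 ± 28.4 FPKM in SCI (log2 change -0.42, adjusted p = 1.69e-05, limma). Fabp7, a fatty acid binding protein gene of radial glia, had 664 ± 17.5 and 883 ± 32.3 FPKM (-0.41, adjusted p = 0.000160). Sox9, a factor of glial fate, was lower, at 3.22 ± 0.203 and 6.89 ± 0.801 FPKM (-0.90, adjusted p = 0.000383). The stem and ependymal surface protein gene Prom1 had 3.58 ± 0.151 and 5.52 ± 0.550 FPKM (-0.51, adjusted p = 0.00239). Sox2, named after its values were seen, had 32.0 ± 1.27 and 27.1 ± 2.03 FPKM (0.23, adjusted p = 0.0181). With equal totals, or without SCI replicate 2 or SCI replicate 3, 0 genes of this list were called higher.

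Of the neuronal differentiation genes that HES proteins repress, Neurog1, Neurog2 and Neurod1 had a value above 0 in 1 library each, and Atoh1 was listed at 0 in all 6. Olig2, a factor of the oligodendrocyte lineage, was higher with stimulation, at 36.0 ± 1.89 and 21.5 ± 0.368 FPKM (log2 change 0.72, adjusted p = 4.69e-05, limma).

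Marker lists of the cell types that make Notch genes moved in the same libraries. Beside the counts that follow, 27.6% of all tested genes were lower and 17.4% higher. Summed levels of 8 astrocyte markers were 2691 to 2852 FPKM in ES and 4101 to 4151 FPKM in SCI, with 7 of 8 lower. The astrocyte marker Slc1a3 did not pass. For 5 ependymal markers the sums were 9.24 to 10.6 and 16.2 to 18.1 FPKM, with 4 lower, and for 6 endothelial markers 49.8 to 51.5 and 71.7 to 77.4 FPKM, with 4 of 5 tested lower and Cldn5 listed at 0 in every library. The mural sums are given above, and Foxj1 and Pecam1 were not used here. Sums of 5 oligodendrocyte markers went the other way, at 12146 to 12168 FPKM in ES and 7602 to 7686 FPKM in SCI, as did 5 neuron markers at 222 to 229 and 164 to 165 FPKM. The part of these shifts in the lower levels of the Notch genes and Msi1 was not tested.

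**Figure D4:**
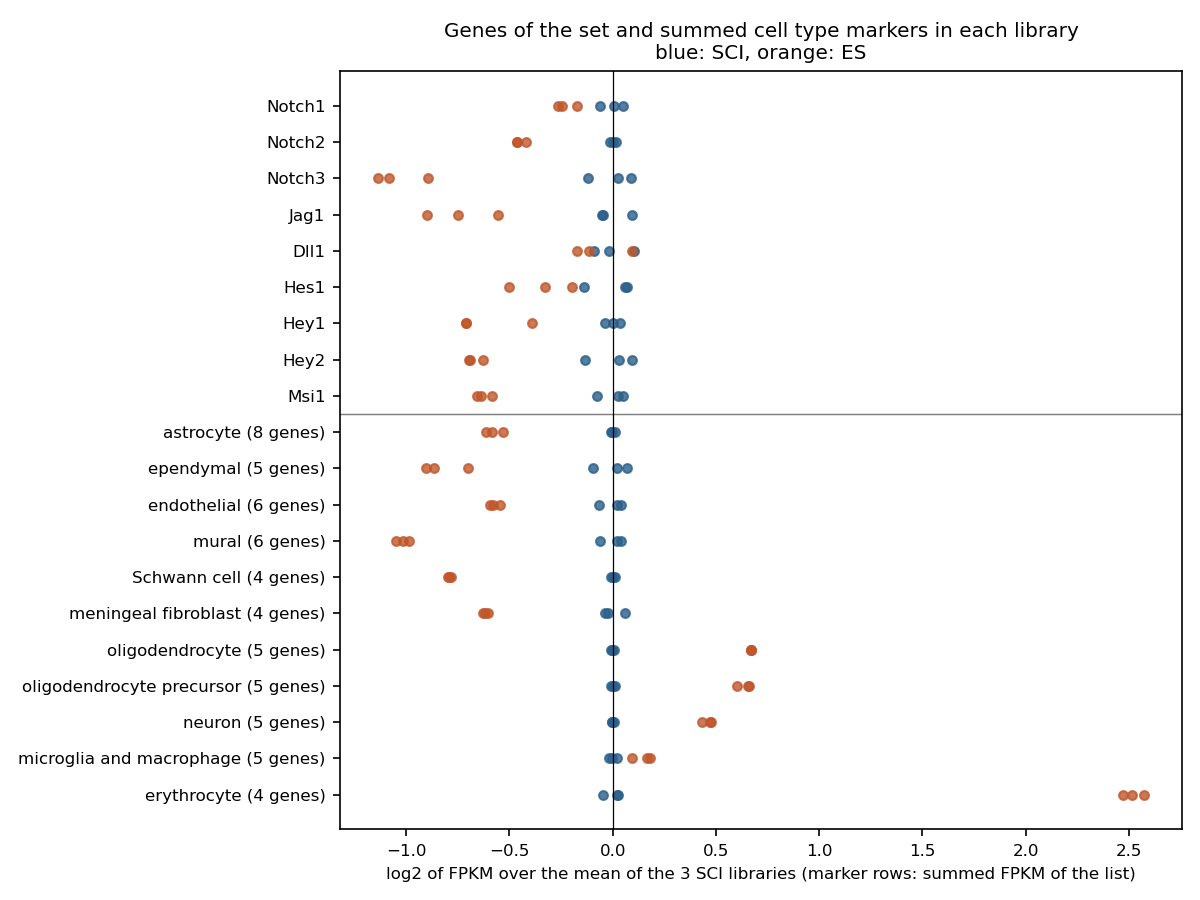
Log2 of each library's FPKM over the mean of the 3 SCI libraries (x axis) for 9 genes of the set (upper rows) and for summed cell type markers (lower rows), in SCI (blue) and ES (orange); Hes5 is left out because it is listed at 0 in SCI. The genes of the set other than Dll1 lie left of 0 in ES libraries, as do astrocyte, ependymal, endothelial, mural, Schwann and meningeal markers, while the sums of oligodendrocyte, precursor, neuron, microglial and erythrocyte markers lie to the right, although the precursor marker Pdgfra by itself was lower.

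Schwann cell markers (642 to 650 FPKM in ES and 1109 to 1124 FPKM in SCI) and meningeal fibroblast markers (608 to 617 and 916 to 977 FPKM) were lower with stimulation in their sums. The sums of oligodendrocyte precursor markers (203 to 212 and 133 to 135 FPKM), microglia and macrophage markers (925 to 983 and 858 to 881 FPKM) and erythrocyte markers (2972 to 3187 and 518 to 546 FPKM) were higher. Among the 5 precursor markers Olig1, Olig2 and Gpr17 were higher, Pdgfra was lower (log2 change -0.23, adjusted p = 0.0049, limma) and Cspg4 did not pass. Of the 5 microglial markers, Cd68 had the highest level and went against the sum. It had 587 ± 26.1 FPKM in ES and 625 ± 11.7 FPKM in SCI, with every ES library below every SCI library. Cd68 did not pass (-0.09, adjusted p = 0.0827, limma). Markers of neurons, oligodendrocytes and astrocytes were thus present in every library of this tissue labelled spinal cord.

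Genes whose values over the 6 libraries were most like those of 3 members were looked up by Pearson r of log2(FPKM + 1), which here describes mainly the difference between the groups. The closest to Notch1 were Laptm4b (r = 0.998), Patl1 (0.997) and Nup214 (0.997), and 645 genes had an r over 0.95. For Msi1 they were Abl2 (1.000), Il18bp (0.999) and AABR07053509 (0.999), among 2049 genes over 0.95. Hes5, whose pattern rests on ES replicate 2, was closest to Tmx2 (0.987), AABR07009533 (0.986) and Zbtb8os (0.986), with 30 genes over 0.95.

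The fit over 19223 transcripts, in which 19.5% were lower, gave 7 of 9 tested transcripts of the set as lower. Hes1 and Dll1 did not pass in it. The Notch1 transcript (adjusted p = 0.0211) lost its call under quantile normalization (0.0648) and median centring (0.141), and without ES replicate 1 or 3 or SCI replicate 1 or 3 (0.0633 to 0.0700). Apart from Notch2 each gene of the set had 1 transcript, with the same values as the gene. No gene of the set therefore entered the test of transcript usage, which called 8.81% of 2589 genes. The authors' deposited table, from a test that the sources used here do not name, gave q-values of 1.04e-06 for Notch2, 0.000167 for Hey2, 0.000599 for Jag1, 0.000945 for Msi1 and 0.0273 for Hey1. In the same authors' deposited table Notch1 (0.152), Hes1 (0.335) and Dll1 (0.992) had q-values above 0.05.

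**Figure D5:**
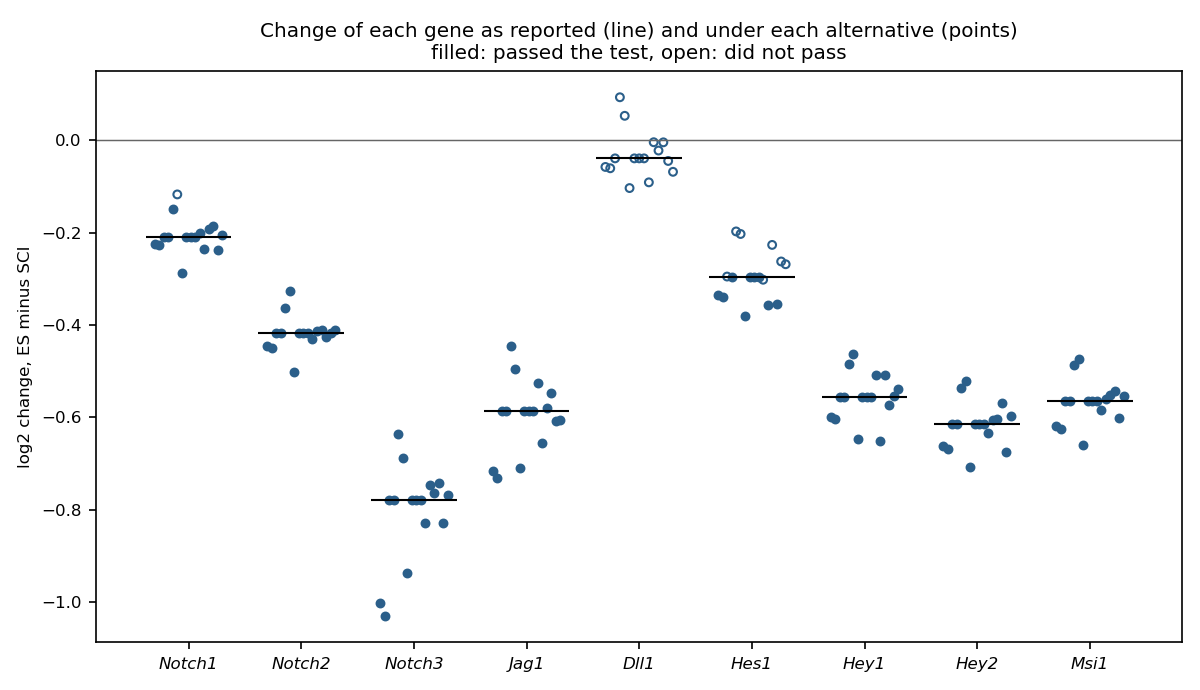
Log2 change, ES minus SCI (y axis), of 9 genes of the set as reported (line) and under each alternative way of processing (points, filled where the test was passed). Points of Notch2, Notch3, Jag1, Hey1, Hey2 and Msi1 are all filled and below 0, Notch1 has 1 open point, Hes1 has several, and those of Dll1 are all open and lie on both sides of 0.

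Depth was estimated at 13900000 to 16200000 read pairs in ES and 16300000 to 18600000 in SCI libraries, and 14134 to 14515 genes per library reached 1 FPKM. At this depth an estimated 1476 to 2347 read pairs lay behind Notch1, 224 to 616 behind Notch3, 311 to 634 behind Msi1 and 118 to 264 behind Hey1. Counting error alone then amounts to 2.33% of the level of Notch1, 7.26% of that of Hey1 and 8.07% of that of Hes1 in a single library. These estimates use the median read pairs over all 6 libraries, ES and SCI together, and so are rough for either group. The spread between libraries (SD as a percent of the mean) was below the estimate in both groups for Notch2 (1.66% in ES and 1.06% in SCI against 2.00%). It was also below it for Msi1 (2.63% against 4.80%) and Hey2 in ES, and for Dll1 and Hey1 in SCI. In SCI, Msi1 (4.61%) and Hes1 (7.90% against 8.07%) were too near the estimate to place. Hes5 was not compared, since its median includes the 0 of the SCI libraries.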

How the data were processed

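The members, gene lists and markers were chosen with earlier results of these data known. The authors deposited FPKM per gene and transcript for each of the 6 libraries, with 0.0001 in place of 0, read here as 0. The authors' fold column is the ratio of group means and their log2 column its log2, per the file headers; the deposited p-value and q-value come from a test that the sources used here do not name. The submitters' processing notes name HISAT and StringTie, with no version; the sources used here give neither build nor annotation. Poly(A) selected, stranded, paired-end libraries were made, per the labels' protocols. Columns were assigned by the treatment and number in their names.

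Features averaging at least 0.5 FPKM entered limma 3.58.1 (R 4.3.3) as log2(FPKM + 1), using the mean-variance trend and a two-sided moderated test, with Benjamini-Hochberg adjustment over all of them; a call needs an adjusted p under 0.05. The log2 scale understates changes of low genes, and percentages are ratios of mean FPKM. Transcript usage was tested with diffSplice and a Simes p. Ratios within a library were compared by an exact permutation test. Depth assumes that the smallest step of low transcript values is 1 read pair. The text names all 10 members, up to 4 further genes per list by smallest p, and absent or filtered list genes; Rbpj, Sox2, and genes named only for their transcripts were added after their values were seen. Some list genes are not reported here. The gene fit, the transcript fit and the usage test were tried on simulated data with known changes. The usage simulation gave every transcript the same spread, unlike the data. The ratio test, the depth estimate and the motif search were not tried in this way. The 16 alternatives were pseudocounts of 0.1 and 0.01, no filter or 2 FPKM, quantile normalization, median centring, equal totals, no trend, the replicate block, an adjusted p under 0.1, and leaving out each library. A call made at an adjusted p under 0.05 cannot be lost at 0.1, so that alternative can only add calls.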

Additional observations from a re-analysis of the deposited data

How the results depend on the processing

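Between 6 and 8 genes of the set were lower and 0 higher in the 16 alternatives: 7 with no filter, under quantile normalization and without ES replicate 1, ES replicate 3, SCI replicate 2 or SCI replicate 3, 6 under median centring, and 8 otherwise. Leaving out 1 library at a time gave 7 to 8. Scaling moved the split of all calls, from 2747 higher and 4341 lower to 3414 and 3257 under quantile normalization, 4021 and 2975 under median centring, and 2066 and 5577 with equal totals. Genes with a usage call numbered 228, but 569 with no filter and 115 with the replicate block, and 163 to 199 without 1 library. The block left 2466 genes higher, 3851 lower and 8 of the set lower, and under it Dlk2 (adjusted p = 0.0685), Poglut1 (0.0619) and the Notch1 transcript (0.0803) lost their calls and Id1 passed as higher (0.0496). Residual correlations of same-numbered libraries were -0.026, -0.026 and -0.029, and no library correlated best with its own number, so no strong effect shared by number was seen. With residuals centred within groups of 3, these values cannot show whether the samples were paired by design. Signs turned for Dll1 (log2 change 0.093 under quantile normalization and 0.053 under median centring, and 0.089 and 0.058 for its transcript), Mib2 (0.010, median centring), and Epn2 (-0.017), Notch4 (-0.052) and Rbpj (-0.033) with equal totals. Without 1 library at a time the change of Notch4 ran from -0.020 to 0.038. The cause was not tested. FPKM carries no count, 3 libraries a group limit the precision, and 1.43 to 5.48 estimated read pairs leave Hes5 undecided.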

Other observations

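Numbl, the gene of a relative of the Notch inhibitor Numb, passed the test of transcript usage while its gene level did not pass. The gene had 11.4 ± 0.397 FPKM in ES and 11.9 ± 0.226 FPKM in SCI (log2 change -0.06, adjusted p = 0.303, limma). The 10-exon transcript ENSRNOT00000057213 made up 87.6%, 58.4% and 70.8% of its transcript level in ES replicates 1 to 3 and 24.5%, 24.5% and 32.5% in SCI replicates 1 to 3. The ES shares were spread widely but all lay above the SCI shares. That transcript rose (1.16 on the log2 scale, adjusted p = 0.00596 in limma) and the 9-exon transcript ENSRNOT00000090478, which starts further downstream, fell (-1.29, adjusted p = 0.0249). The usage p, adjusted over 2589 genes of which 8.81% were called, was 0.00459, with a range of 0.00264 to 0.0327 over its alternatives.

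Of 17 genes of the 13 lists tested for usage, 3 were called, against 8.81% of all 2589 genes tested. Besides Numbl these were the glutamate transporter gene Slc1a3 (adjusted p = 0.00157) and Psen2 (0.0419), all named after their values were seen. The gene level of Slc1a3 was uneven within groups, at 15.9, 59.4 and 62.0 FPKM in ES and 41.0, 16.4 and 15.7 FPKM in SCI. It did not pass the gene test (adjusted p = 0.317, limma). The minor Psen2 transcript ENSRNOT00000040203 made up 3.44%, 3.80% and 3.27% of the gene in ES and 2.40%, 2.01% and 2.28% in SCI. The Psen2 call was lost without each single library (adjusted p = 0.0812 to 0.120) and with the replicate block (0.151).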
